A study of Mus musculus with 2 samples.

Results

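The barcodes described here were 107 collagen-expressing cell barcodes of the regenerating mouse digit tip that carried transcripts of Wisp2, Hp or A2m, out of 5167 barcodes past a cell filter and 11023 in the files. A barcode stands for 1 droplet, and each transcript molecule counted in it is a unique molecular identifier (UMI). Levels in a single barcode are given as CP10k, the UMIs of a gene per 10000 UMIs of that barcode. Members had at least 500 genes, at most 10% mitochondrial UMIs and at least 5000 UMIs. Their summed Col1a1, Col1a2 and Col3a1 was at least 30 CP10k, their summed A2m, Wisp2 and Hp at least 5 CP10k, and their summed Bglap and Bglap2 under 30 CP10k. They were set against the 3670 other barcodes with the same collagen minimum. The working name of the set refers to Mmp13 and Saa3, 2 genes that the selection did not use.

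Adult mice aged 10 to 12 weeks received tamoxifen by intraperitoneal injection at 3 mg per day on 4 days, digit tips were amputated 10 days later, and the tissue distal to the amputation was collected at 14 days after amputation. One 10x Genomics 3′ library came from PdgfraCreERT;R26-LSL-TdT mice and 1 from Lmx1bCreERT2;R26-LSL-TdT mice, called the Pdgfra and the Lmx1b library below. Tamoxifen lets the Cre of each line, driven by the Pdgfra or the Lmx1b gene, remove a stop cassette ahead of tdTomato, after which the cell and its descendants keep the label. How many animals were pooled was not given in the labels, no unamputated group was analysed here, and with 1 library per line there is no replicate, so no test between lines or between barcode sets was made. All folds are ratios of summed UMIs scaled to 1000000 (CPM), and their 95% intervals are exact Poisson intervals that cover counting error only.

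Wisp2 (Ccn5), Hp (haptoglobin, which binds free haemoglobin) and A2m (a broad protease inhibitor) are secreted proteins. Saa3 encodes a serum amyloid A that is induced outside the liver in the acute phase response, a programme driven by interleukin-1 and interleukin-6 type cytokines through NF-kB, STAT3 and C/EBP factors. Mmp13 encodes collagenase 3, which cleaves fibrillar collagen and is made in bone and cartilage and in wounds. Digit tip regeneration passes through bone resorption and inflammation before a blastema forms, and stromal cells release many of the signals and proteases of that phase.

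Saa3 lies on chromosome 7 (46711998 to 46715700, minus strand) and Mmp13 on chromosome 9 (7272514 to 7283331, plus strand) in the GENCODE vM21 annotation of mm10. The 250 bases before each gene's start in RefSeq are shown because these 2 genes name the set and, as described next, were high together in few of its barcodes. For Saa3 that start lies inside the gene as placed by GENCODE, so the last bases of its window fall within that gene. The sequences are from RefSeq, build GRCm38.p6, at chr7:46715677-46715926 (minus strand) and chr9:7272264-7272513 (plus strand), 5′ to 3′, with motif matches in capitals.
Saa3: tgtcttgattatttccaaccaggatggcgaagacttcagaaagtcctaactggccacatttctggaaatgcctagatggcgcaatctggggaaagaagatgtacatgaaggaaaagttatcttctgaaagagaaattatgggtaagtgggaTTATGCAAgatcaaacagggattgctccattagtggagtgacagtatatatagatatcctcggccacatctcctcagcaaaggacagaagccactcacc
Mmp13: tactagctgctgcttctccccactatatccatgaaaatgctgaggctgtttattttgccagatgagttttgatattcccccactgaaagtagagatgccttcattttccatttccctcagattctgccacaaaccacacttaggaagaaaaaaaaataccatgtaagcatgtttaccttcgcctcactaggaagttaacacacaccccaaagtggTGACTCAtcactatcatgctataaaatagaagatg
Both strands were searched for TTNNGCAA (C/EBP), TGANTCA (AP-1) and, for NF-kB, GGG and CC with any 5 bases between them. The Saa3 window held TTATGCAA at 99 to 92 bases before the RefSeq start, and 9.56% of the 32851 promoters in the RefSeq table hold TTNNGCAA. Upstream of Mmp13 lay TGACTCA at 35 to 29 bases before the start, and TGANTCA is in 6.75% of those promoters. Neither window held the NF-kB letters, which 45.8% of the promoters hold. No match overlapped another, and a match describes letters only.

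The 107 members were unevenly split between the lines. There were 89 members among the 1921 collagen barcodes of the Lmx1b library, or 4.63% (exact binomial 95% interval 3.74 to 5.67), and 18 among 1856 in the Pdgfra library, or 0.970% (0.576 to 1.53). Depth differed between these denominators, as other collagen barcodes had a median of 18295 UMIs (Lmx1b library) and 6408 (Pdgfra library). Among collagen barcodes that also met the members' UMI and Bglap limits, the shares were 6.92% (89 of 1287, 5.59 to 8.44) and 1.89% (18 of 954, 1.12 to 2.97). Members themselves had a median of 24116 UMIs (Lmx1b library) and 19486.5 (Pdgfra library). The libraries shared 10 barcode sequences, none of them a member.

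The name of the set held for a minority of it. At least 1 Saa3 UMI was found in 21 of 89 Lmx1b members (23.6%) and 2 of 18 Pdgfra members (11.1%), against 2.04% and 0.403% of endothelial barcodes, and the median member had 0 Saa3 in both libraries. Mmp13 was detected in 64 of 89 (71.9%) and 8 of 18 (44.4%) members, against 8.70% and 6.45% of endothelial barcodes and 22.3% and 15.4% of other collagen barcodes. Of the fibroblast comparison barcodes, a narrower set defined with the gene comparison, 30.2% and 25.4% had Mmp13, and the exact interval of the Pdgfra members, 21.5 to 69.2, includes the latter. The endothelial barcodes had medians of 13364 and 12467 UMIs. After thinning every barcode to 5000 UMIs, Saa3 was found in 19.1% and Mmp13 in 64.0% of Lmx1b members, against 0.576% and 2.69% of endothelial barcodes. A level of 10 CP10k or more of Mmp13 was reached by 36 of 89 and 6 of 18 members, and of Saa3 by 14 and 1. Both genes reached it in 10 Lmx1b members and 1 Pdgfra member. The set is therefore called below by the genes that chose it, and the collagen barcodes high in both Saa3 and Mmp13 are described as a subset of it.

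**Figure D1:**
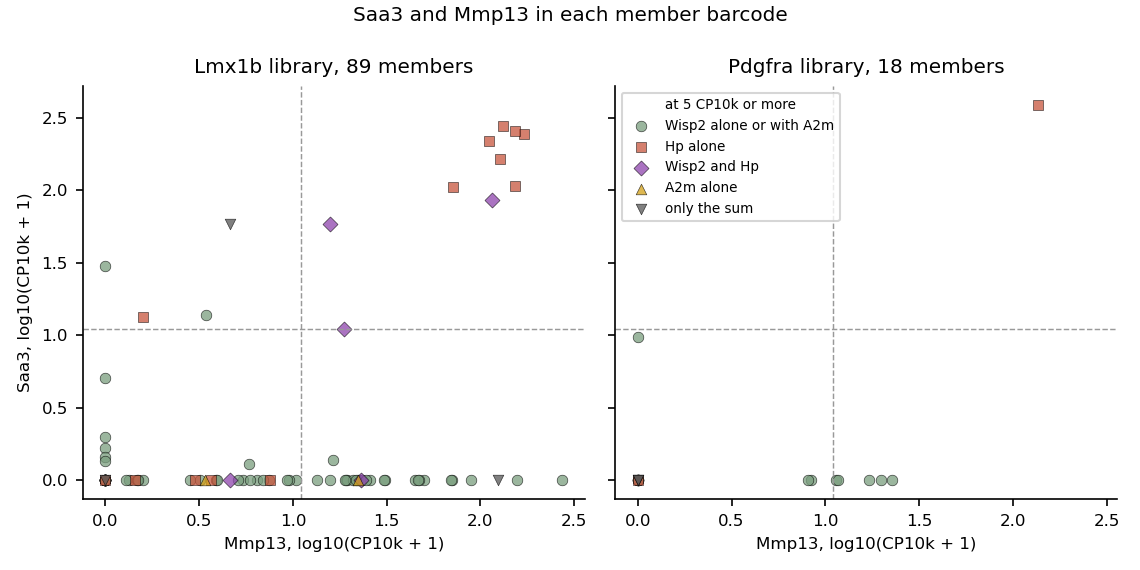
Saa3 (vertical) against Mmp13 (horizontal) in each member barcode, both as log10(CP10k + 1), with 1 panel per library; marker shapes give the selecting gene at 5 CP10k or more and dashed lines mark 10 CP10k. In the Lmx1b panel the 10 members above both lines carry Hp at 5 CP10k or more, while 26 members pass the Mmp13 line alone.

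Wisp2 admitted most members. By Wisp2 alone at 5 CP10k or more there were 60 of 89 Lmx1b members and 14 of 18 Pdgfra members, and by Hp alone 13 and 2. Both A2m and Wisp2 passed in 6 Lmx1b members, Wisp2 and Hp in 5, and A2m alone in 2. The remaining 3 and 2 members passed only through the sum of the genes. Wisp2 in the Lmx1b members ranged from 0 to 33.0 CP10k with a median of 8.90, Hp from 0 to 57.9 with a median of 0.725, and A2m from 0 to 54.7 with a median of 0. The selecting genes thus marked largely separate barcodes: over the 89 Lmx1b members, thinned to 5000 UMIs, the rank correlation of Hp with Wisp2 was -0.41. These correlations describe barcodes of 1 library, which share its depth and free RNA, and the selection itself favours a negative value between genes that admit members separately.

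The 10 Lmx1b members with both genes high were chosen by those values, which overlap the rest of the set: members with Mmp13 alone reached 272 CP10k of it, and members with Saa3 alone 57.6 CP10k. In the 10, Saa3 ran from 10.1 to 274 CP10k with a median of 134, and Mmp13 from 14.7 to 169 with a median of 120. All 10 had Hp at 7.63 CP10k or more (median 29.7, highest 57.9). Slpi, a secretory leukocyte protease inhibitor, was not used to choose the 10 but was named after its values were seen. It was between 11.04 and 72.7 CP10k in all 10, with a median of 33.5. In the 26 members with Mmp13 alone and in the 49 with neither, its median was 0. Ibsp, the bone sialoprotein, had a median of 22.2 CP10k in the 10, from 2.54 to 122, against 2.20 in the 26 and 1.47 in the 49. Ibsp was also found in 505 of 540 endothelial barcodes of this library, at a median of 1.92 and at most 13.6 CP10k. The median over all 89 members, 1.83, was no more than the endothelial median. Whether the low Ibsp counts were free transcript was not tested. Cxcl14 was the lower in the 10, with medians of 3.31 against 16.2 CP10k in the 49. Igf1 had medians of 0.145 and 3.19 CP10k in the 10 and the 49, and Sfrp4 of 0.690 and 0.964. Macrophage and neutrophil markers together reached at most 4.33 CP10k in these 10, and mural markers 59.2 CP10k in 1 of them. The part of these cells was not tested.

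**Figure D2:**
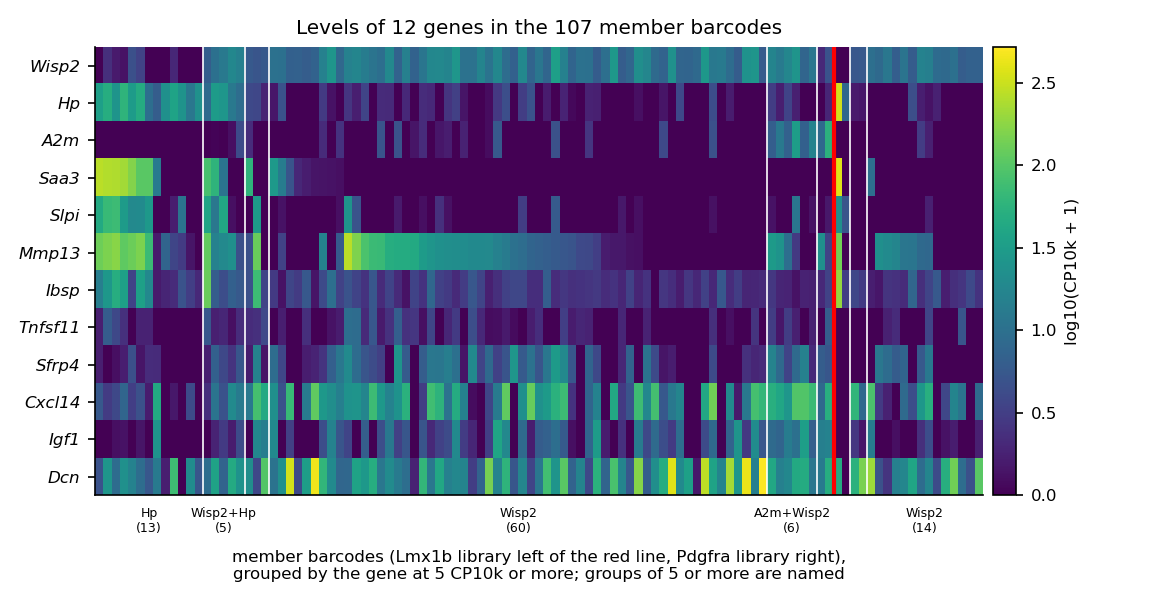
Levels of 12 genes, as log10(CP10k + 1) by colour, in the 107 members (columns), ordered by library and by the selecting gene at 5 CP10k or more. Of the 36 Lmx1b members with Mmp13 at 10 CP10k or more, 21 are in the Wisp2 columns and 7 in the Hp columns, while Saa3 and Slpi are highest in the Hp columns at the left. Lmx1b medians of Cxcl14, Igf1 and Sfrp4 are 60.7, 8.35 and 7.52 CP10k in the A2m+Wisp2 columns. They are 16.8, 2.97 and 2.98 in the Wisp2 columns and 2.18, 0 and 0.291 in the Hp columns.

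Members admitted by Hp and by Wisp2 were also compared across genes. The comparison was chosen after the values were seen, within the Lmx1b library, over 1145 genes with a mean of at least 20 CPM and detected in at least 50% of 1 of the groups. Of these, 38 (3.32%) were at least 2-fold higher and 61 (5.33%) at least 2-fold lower in the 13 Hp members than in the 60 Wisp2 members. Summed Saa3 was 10969 against 74.4 CPM, and 28.1% of it in the Hp members came from 1 barcode. Summed Slpi was 32.6-fold higher (interval 26.6 to 40.4), and Cp, ceruloplasmin, a copper-carrying acute phase protein, 8.39-fold higher (6.42 to 11.04). Hif1a, the oxygen-regulated transcription factor, was 4.46-fold higher (3.54 to 5.63), and the lactate transporter Slc16a1 4.77-fold (3.42 to 6.67). On the other side stood Gas6, the ligand of TAM receptor kinases, 15.2-fold lower (11.1 to 21.4), and Mfap5, a microfibril protein, 10.9-fold lower (7.02 to 17.95). Cxcl14 was 7.02-fold lower (5.98 to 8.30), Igf1 5.34-fold lower (3.93 to 7.43), and the collagen-binding proteoglycan Dcn 3.33-fold lower (3.10 to 3.596). Single barcodes gave 93.0% of the Hp members' Igf1, 85.0% of their Mfap5 and 58.7% of their Dcn UMIs, and 72.1% of the Wisp2 members' Slpi UMIs. Other-class markers reached 5 CP10k in 6 of the 13 Hp members, among them mural sums up to 146 and a myeloid sum of 3025 CP10k, and in 21 of the 60 Wisp2 members. Without those members, 33 of the 38 higher and 56 of the 61 lower genes were called again. Gas6 was then 18.6-fold lower, Dcn 2.59-fold lower, Hif1a 4.48-fold higher and Cp 13.6-fold higher. Igf1 was 52.4-fold lower on 3 UMIs in the 7 Hp members (interval 17.8 to 255). Saa3 was 14491 CPM in those 7 and 1.94 CPM, or 2 UMIs, in the 39 Wisp2 members.

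Mmp13 also ran with genes other than Saa3. Over the 89 thinned Lmx1b members its rank correlation was 0.42 with Hp, 0.41 with Tnfsf11, 0.32 with Saa3 and 0.29 with Sfrp4. Cxcl14 correlated at 0.50 with Igf1 and at 0.42 with Wisp2, and Saa3 at 0.50 with Hp and -0.33 with Wisp2. The 26 Lmx1b members with Mmp13 alone had median Sfrp4 of 5.36 and Wisp2 of 13.6 CP10k, against 0.690 and 1.89 in the 10 with Saa3 as well. Every member carries 1 of the selecting genes by the rule, and Sfrp4 reached 10 CP10k in 8 of the 26.

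The Pdgfra library contributed 1 barcode with the Saa3 pattern, and it stood apart. It had 6300 UMIs, a collagen sum of 39.7 CP10k, 335 CP10k of Hp, 387 of Saa3, 135 of Mmp13, 190 of Ibsp and 119 of Lcn2. It also had 148 CP10k of the cartilage gene Col2a1, more than its collagen sum, and a chondrocyte marker sum of 171 CP10k. It had no tdTomato UMI, where 17 of the 18 Pdgfra members had at least 1, and carried Xist at 12.7 CP10k with no Ddx3y, where no other Pdgfra member had Xist. It gave 90.4% of the Saa3 and 93.8% of the Hp UMIs of the Pdgfra members. Without it, the Saa3 log2 difference from other collagen barcodes in that library was 3.55 in place of 6.90, all from 1 remaining barcode at 8.80 CP10k. The other Hp-admitted Pdgfra member had 50.05 CP10k of macrophage and neutrophil markers and no Dcn.

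Against the other collagen barcodes, 9769 genes were measured, meaning a mean of members and others of at least 5 CPM in both libraries. Members were at least 2-fold higher in both libraries for 257 genes (2.63% of those measured) and at least 2-fold lower in both for 253 (2.59%). Taken alone, the Lmx1b library gave 628 higher (6.43%) and 470 lower (4.81%), and the Pdgfra library 590 (6.04%) and 895 (9.16%). The median over all measured genes was 0.21 on the log2 scale (Lmx1b library) and 0.04 (Pdgfra library). Since the members were chosen on transcripts of the same barcodes, these values describe the set and test nothing. Single barcodes weighed on the Pdgfra side: of the 257 higher genes, 57 (22.2%) had over 50% of the Pdgfra members' UMIs in 1 barcode, against 5 (1.95%) in the Lmx1b members. Over all measured genes the shares were 8.47% and 0.717%.

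Because other collagen barcodes include osteoblasts, chondrocytes and barcodes with markers of other cell types, a narrower set was also used, chosen after the data were seen. These fibroblast comparison barcodes had at least 5000 UMIs, osteoblast and chondrocyte marker sums under 30 CP10k each and no marker sum of another class at 5 CP10k or more, which left 424 (Lmx1b library) and 402 (Pdgfra library). Against them 277 of 9715 measured genes (2.85%) were higher and 165 (1.7%) lower in both libraries. Of the 257 genes above, 139 (54.1%) were also higher against this set, and of the 253 lower genes 65 (25.7%) were also lower.

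Ranked by the library with the smaller fold, and leaving out the selecting genes, Saa3 had the largest difference of the measured genes. Summed Saa3 was 2351 CPM in the Lmx1b members and 18.5 in other collagen barcodes, a 127-fold difference (118 to 138), and 721 against 6.04 CPM in the Pdgfra library, 119-fold (98.8 to 145). Its summed level rests on few barcodes, as shown above. Mmp13 was 2913 against 254 CPM, 11.5-fold (11.1 to 11.8), and 769 against 142 CPM, 5.41-fold (4.79 to 6.10), with the top barcode giving 11.7% and 29.5% of the members' UMIs. Against the fibroblast comparison barcodes Mmp13 was still 9.60-fold and 4.59-fold higher.

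Gdpd2, a glycerophosphodiester phosphodiesterase known from osteoblasts, was 15.2-fold (13.2 to 17.5) and 19.9-fold (12.2 to 31.3) higher, with UMIs in 43.8% of thinned Lmx1b members against 4.00% of other barcodes. Sfrp4, a secreted Wnt antagonist, was 496 against 51.1 CPM in the Lmx1b library, 9.70-fold (9.02 to 10.4), and 294 against 12.3 CPM in the Pdgfra library, 23.9-fold (19.2 to 29.6). Tnfsf11, or RANKL, the cytokine that osteoclasts need to form, was 110 against 10.97 CPM, 10.03-fold (8.57 to 11.7), and 82.8 against 7.06 CPM, 11.7-fold (7.78 to 17.1), with 58.1% of the Pdgfra UMIs in 1 barcode. Its decoy receptor Tnfrsf11b was at 5.32 against 20.2 CPM in the Lmx1b and 21.4 against 18.2 CPM in the Pdgfra library. Cyp1b1, a cytochrome P450, was 16.1-fold and 24.4-fold higher, and Aldh1a2, which makes retinoic acid, 14.1-fold and 9.01-fold. Kng2, a kininogen, was 24.0-fold and 22.01-fold higher (5 UMIs in the Pdgfra members), and H2-Q10, a class Ib histocompatibility gene, 23.8-fold and 8.58-fold.

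The other genes with the largest folds stood on fewer molecules. Lgi2, Cbln1, Msc, Il33, Cd244 and Gzme were 8.28-fold to 31.7-fold higher in the Lmx1b library and 7.78-fold to 69.7-fold in the Pdgfra library. The Pdgfra values came from 4 to 14 UMIs a gene. All Pdgfra UMIs of Il33, an alarmin cytokine, and of Lgi2 were in 1 barcode each, and 69.4% of the Lmx1b members' 49 Il33 UMIs were as well. In all, 7 of the 14 genes plotted for the largest folds had over 50% of their Pdgfra UMIs in 1 member, and 3 of 14 had so in the Lmx1b library.

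**Figure D3:**
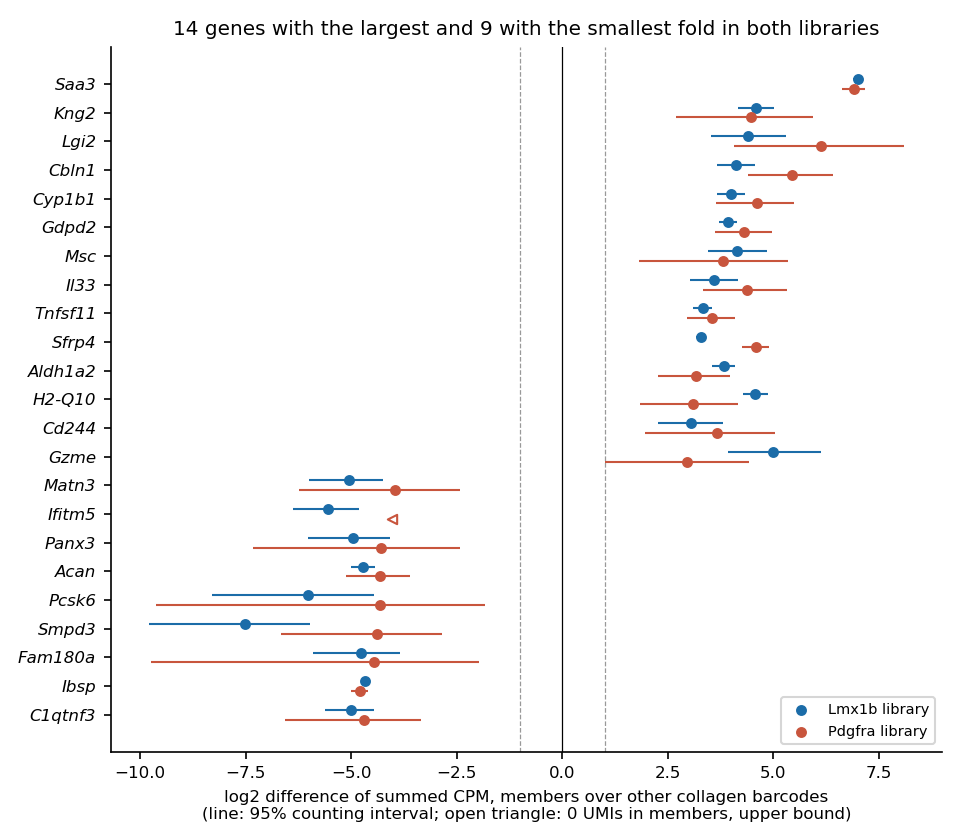
Log2 difference of summed CPM between members and other collagen barcodes (horizontal) for 14 of the 15 genes with the largest and 9 of the 10 with the smallest fold in both libraries; points are the 2 libraries, lines 95% counting intervals, dashed lines 2-fold. Saa3 is near 7 in both libraries, and the Pdgfra intervals are the wider.

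Some acute phase genes were higher in members, carried by few barcodes. For this and each list below, the shares over all measured genes were 2.63% higher and 2.59% lower in both libraries. Of 12 listed genes 6 were measured, 3 of them higher in both libraries (Saa3, Lcn2 and Cp) and none lower, with a list median of 1.505 (Lmx1b library) and 1.07 (Pdgfra library) against 0.21 and 0.04 for all genes. Cp was 7.11-fold (6.31 to 7.99) and 2.63-fold (1.43 to 4.46) higher. Lcn2, the neutrophil gelatinase-associated lipocalin, was 3.28-fold and 149-fold higher, but 97.2% of its Lmx1b UMIs came from a member of 5008 UMIs whose macrophage and neutrophil markers summed to 3025 CP10k, and 100% of its Pdgfra UMIs from the barcode with Xist. Without members carrying markers of other classes, the Lcn2 log2 difference in the Lmx1b library was -2.91.

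Of 9 measured complement genes 4 were higher in both libraries, C3, C2 and Serping1 among them, and none lower, with list medians of 1.67 and 0.84. Serping1, the inhibitor of the C1 proteases, was 1410 against 313 CPM, 4.51-fold (4.34 to 4.68), and 777 against 328 CPM, 2.37-fold (2.10 to 2.66). It was found in 86.5% and 72.2% of thinned members, against 53.1% and 61.5% of thinned other collagen barcodes. Against the fibroblast comparison barcodes it was 3.29-fold and 1.72-fold higher. C3, the central component, was 8.59-fold (6.79 to 10.8) and 4.05-fold (1.72 to 8.18) higher, the latter on 8 UMIs with 75% in 1 barcode. C2 was 4.87-fold and 3.54-fold higher. C3 and C2 were detected in 11.2% and 29.2% of thinned Lmx1b members. Against the fibroblast comparison barcodes the complement medians were 0.63 and 0.05.

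Of 17 measured chemokines and cytokines, 7 were higher in both libraries and none lower: Il33, Tnfsf11, Cxcl14, Ccl8, Cxcl12, Cxcl16 and Cx3cl1. Cxcl14, a chemokine of skin and stroma, was the most abundant, at 2445 against 319 CPM, 7.67-fold (7.44 to 7.91), and 1801 against 248 CPM, 7.27-fold (6.71 to 7.86). Its values in Lmx1b members ran from 0 to 132 CP10k with a median of 14.98, and a single barcode gave 38.0% of the Pdgfra UMIs. Cxcl12, which retains blood cell progenitors, was 3.61-fold (3.46 to 3.77) and 3.19-fold (2.77 to 3.66) higher. The list medians were 1.85 and 1.45, and 2.05 and 1.20 against the fibroblast comparison barcodes. The myeloid attractants Ccl2 and Cxcl1, and Il6, which induces acute phase genes, were at least 2-fold higher in the Lmx1b library alone. Ccl8 was 6.15-fold (3.75 to 9.80) and 39.99-fold (17.6 to 85.4) higher, on 26 and 11 member UMIs. Single barcodes gave 38.5% and 54.5% of those Ccl8 UMIs. Ccl2 was at 116 against 19.7 CPM in the Lmx1b library and 26.7 against 18.6 in the Pdgfra library. Cxcl1 was 242 against 52.2 CPM in the former and 21.4 against 39.7 in the latter. Il6 was at 24.9 against 3.30 CPM in the Lmx1b library and had no UMI in the 18 Pdgfra members. The difference between the libraries was not tested.

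Of 18 measured cytokine receptors and STAT3 feedback genes 3 were higher in both libraries: Il4ra, Cebpb and Tnfrsf1b. Cebpb, a C/EBP transcription factor of the acute phase, was 412 against 112 CPM, 3.67-fold (3.42 to 3.93), and 403 against 145 CPM, 2.79-fold (2.36 to 3.28), and 39.7% of its Pdgfra UMIs were in 1 barcode. Tnfrsf1b rested on 4 UMIs in the Pdgfra members. One of 14 measured NF-kB pathway genes was higher in both, the adhesion molecule Vcam1, at 3.66-fold (3.27 to 4.09) and 3.54-fold (2.75 to 4.49). None of 8 interferon response genes passed 2-fold in both libraries in either direction, where 2.63% and 2.59% of all measured genes were higher and lower. These 3 lists had medians of 0.77 to 1.08 in the Lmx1b and 0.25 to 0.67 in the Pdgfra library, and of 0.58 to 1.26 and 0.05 to 0.46 against the fibroblast comparison barcodes.

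**Figure D4:**
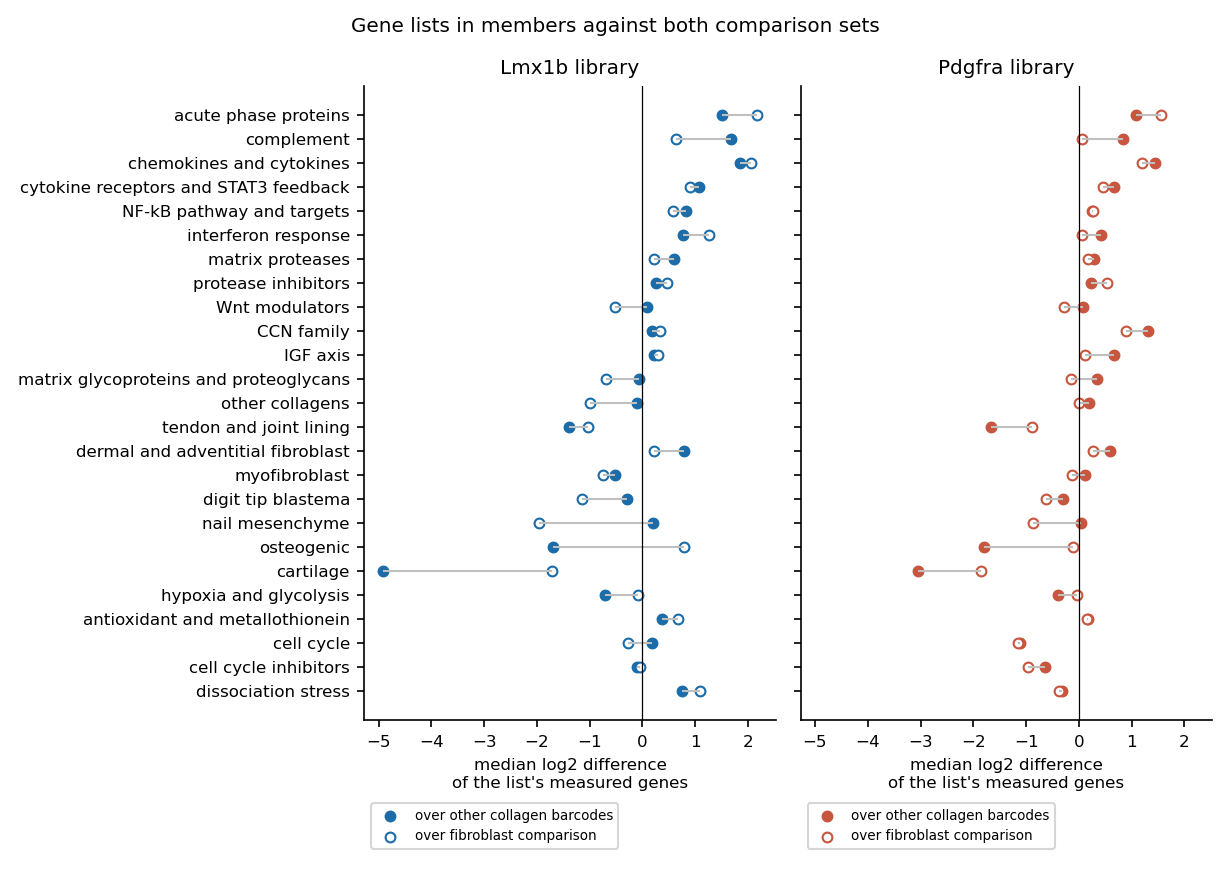
Median log2 difference of the measured genes of 25 lists, members over other collagen barcodes (filled) and over fibroblast comparison barcodes (open), 1 panel per library. The osteogenic median moves from -1.70 to 0.79 in the Lmx1b library with the comparison set, which is limited in osteoblast markers by definition. The chemokine median stays between 1.20 and 2.05 in both panels.

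Matrix proteases other than Mmp13 were mixed. Of 25 measured, 5 were higher in both libraries (Mmp13, Htra3, Mmp19, Adamts5 and Adamts2) and 2 lower (Adamts18 and Adam12). Htra3, a secreted serine protease, was 3.37-fold (3.15 to 3.61) and 2.99-fold (2.45 to 3.62) higher. Adamts5, an aggrecanase, was 3.64-fold (3.13 to 4.23) and 2.10-fold (1.31 to 3.19) higher. The gelatinase Mmp2 and the membrane collagenase Mmp14, which can activate other metalloproteases, were within 1.05-fold to 1.21-fold of other barcodes in both libraries. Mmp3, stromelysin, was at 250 against 22.8 CPM in the Lmx1b library, with 76.6% of the UMIs in 1 member. Of 10 protease inhibitors Serpina3n was higher in both, at 3.71-fold (3.17 to 4.34) and 7.38-fold (5.68 to 9.45), with 62.3% of its Pdgfra UMIs in 1 barcode.

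In the list of Wnt modulators, 3 of 13 measured genes were higher (Sfrp4, Sfrp1 and Rspo3) and 1 lower (Dkk1). Rspo3, which strengthens Wnt signals through Lgr receptors, was 4.55-fold (4.05 to 5.10) and 3.41-fold (2.52 to 4.51) higher. Against the fibroblast comparison barcodes the list medians were -0.53 and -0.28, with 2 of 14 measured genes higher and 3 lower in both libraries. There Sfrp4 was 6.34-fold and 44.9-fold higher, Rspo3 3.19-fold and 1.70-fold, and Sfrp1 1.64-fold and 1.09-fold. Dkk1, on 2 and 1 member UMIs, was 1.98-fold and 2.81-fold higher there. Of 10 IGF axis genes, 3 were higher: Igf1 by 6.30-fold (5.90 to 6.73) and 3.10-fold (2.35 to 4.02, with 66.1% of the Pdgfra UMIs in 1 barcode), and the binding proteins Igfbp4 and Igfbp5 by 2.07-fold to 2.52-fold. Against the fibroblast comparison barcodes Igf1 was 5.79-fold and 2.06-fold higher, and Igfbp4 and Igfbp5 between 1.09-fold and 1.38-fold. With the sum of the selecting genes at 10 CP10k or more, which left 5 Pdgfra members, Igfbp5 was lower in that library, at -0.50 on the log2 scale. Ctgf, a CCN protein related to the selecting gene Wisp2, was 2.22-fold and 5.98-fold higher, with 66.9% of its Pdgfra UMIs in 1 barcode.

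Structural matrix lists had medians near that of all genes against the other collagen barcodes. Against the fibroblast comparison barcodes the medians were -0.69 and -0.15 for glycoproteins and proteoglycans and -0.995 and 0.0077 for other collagens. All genes there had medians of 0.10 and -0.02. Among 34 measured glycoproteins and proteoglycans, Fbln1, Fbn1 and Dcn were higher and Comp, Tnn and Fmod lower in both libraries. Fbn1, the main microfibril protein, was 3.18-fold and 3.65-fold higher, and Fbln1 4.31-fold and 4.04-fold. Fmod, a proteoglycan of tendon, was 2.31-fold and 2.11-fold lower, and Comp, a cartilage and tendon protein, 12.5-fold and 12.9-fold lower. Col5a3 was higher and Col11a1 lower among 15 other collagens. Tendon and joint genes had medians of -1.39 and -1.66, with 3 of 8 lower in both libraries. Dermal and adventitial fibroblast genes had medians of 0.79 and 0.58, above those of all genes, and 0.23 and 0.27 against the fibroblast comparison barcodes. Of 11 measured against the other collagen barcodes none passed 2-fold upwards in both libraries and Pcolce2 was lower in both. None of 8 myofibroblast genes was called in either direction, where 2.63% and 2.59% of all measured genes were called higher and lower. In the 16 measured blastema genes Twist2 was higher and H19 lower, and the median was -0.29 and -0.30. Against the fibroblast comparison barcodes the blastema medians were -1.15 and -0.63, with 6 of 16 measured genes lower and 1 higher in both libraries.

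Cartilage and osteogenic genes had the lowest medians of the 25 lists, at -4.91 and -1.70 in the Lmx1b and -3.04 and -1.79 in the Pdgfra library. The selection kept Bglap-rich barcodes out of the members. With the members' Bglap and UMI limits put on the other barcodes as well, the medians were -4.96 and -1.39, and -3.04 and -1.80, and 230 of the 253 lower genes (90.9%) were called again. Of 11 measured osteogenic genes 7 were lower in both libraries, and all 7 measured cartilage genes. Ibsp was 664 against 16855 CPM in the Lmx1b library, 25.4-fold lower (24.2 to 26.7), and 492 against 13698 CPM in the Pdgfra library, 27.9-fold lower (24.1 to 32.4). Acan, the cartilage proteoglycan aggrecan, was 26.3-fold and 19.9-fold lower, and Matn3, a cartilage matrix protein, 33.0-fold and 15.6-fold. C1qtnf3, a secreted C1q and TNF family protein, was 32.3-fold and 25.9-fold lower. Ifitm5, an osteoblast membrane protein, was 46.8-fold lower in the Lmx1b members and had no UMI in the Pdgfra members, where it was at least 16.4-fold lower at a floor of 3 UMIs over the group. Smpd3, Pcsk6, Panx3 and Fam180a were also among those with the smallest folds, on 1 to 3 Pdgfra UMIs each.

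The bone genes turned with the comparison set. Against fibroblast comparison barcodes Ibsp was 2.07-fold and 1.12-fold higher in members, with 33.6% and 65.2% of the members' UMIs in 1 barcode. Ibsp belongs to the osteoblast marker sum kept under 30 CP10k in those barcodes, and members had no limit on it. Its turn is therefore partly set by the definition. Spp1, osteopontin, was 3.25-fold and 4.08-fold lower than in other collagen barcodes but 5.73-fold and 3.79-fold higher than in the fibroblast comparison barcodes, and 44.1% of its Lmx1b UMIs came from 1 barcode. Acan, C1qtnf3 and Matn3 were lower against both sets. Osteoblast marker sums of 5 CP10k or more were found in 44 of 89 and 5 of 18 members, against 92 of 424 and 108 of 402 fibroblast comparison barcodes, whose limit of 30 CP10k is part of their definition.

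Cell division and dissociation genes were not called in either direction in both libraries. Calls were also rare over all measured genes, at 2.63% higher and 2.59% lower, so their absence from a short list says little. The 13 cell cycle genes had a median of 0.18 (Lmx1b library) and -1.11 (Pdgfra library). Mki67, a proliferation marker, was 40.9 against 31.0 CPM in the Lmx1b members, with 42.0% of its UMIs in 1 barcode, and had no UMI in the 18 Pdgfra members. For 14 stress genes of tissue digestion the medians were 0.75 and -0.32. Jun, an immediate early gene, was 533 against 213 CPM in the Lmx1b library and 462 against 437 in the Pdgfra library. None of 11 hypoxia and glycolysis genes was called, and their medians were -0.71 and -0.39.

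Markers of other cell types were present in some members. At 5 CP10k or more of any of the macrophage, neutrophil, endothelial, mural, epithelial or erythroid lists stood 32 of 89 Lmx1b members (36.0%) and 6 of 18 Pdgfra members (33.3%), against 47.6% and 59.2% of other collagen barcodes. The other collagen barcodes had no UMI minimum, and in a shallow one 1 UMI can reach 5 CP10k, so these shares are not alike. Mural markers accounted for most, in 30 and 5 members (33.7% and 27.8%), against 28.0% and 34.1% of other collagen barcodes. Their sums in members ranged from 0 to 164 and from 0 to 136 CP10k. A pair of Pdgfra members had 242 and 313 CP10k of Acta2, Myh11 and Rgs5 together. Macrophage markers reached 5 CP10k in 2 and 2 members and neutrophil markers in 1 and 0. The 4 T and NK cell markers in the files had no UMI in any member. Without members carrying such markers, 57 and 12 were left, and 173 of the 257 higher genes (67.3%) and 183 of the 253 lower genes (72.3%) were called again. The part of these cells in the results was not tested beyond that.

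No member of the Lmx1b library reached the reporter limit of 1600 CPM, which was taken from an earlier look at these data. At 1600 CPM of tdTomato or more there were 0 of 89 members, which at a floor of 3 barcodes allows a share of up to 3.37%, with a highest value of 560 CPM. Among fibroblast comparison barcodes of that library 50 of 424 (11.8%, 8.88 to 15.3) passed, and among all other collagen barcodes 78 of 1832 (4.26%, 3.38 to 5.29). In the Pdgfra library 15 of 18 members (83.3%, 58.6 to 96.4) and 350 of 402 fibroblast comparison barcodes (87.1%, 83.4 to 90.2) did. Of its other collagen barcodes, which had no UMI minimum, 934 of 1838 passed (50.8%, 48.5 to 53.1). Low tdTomato counts were common in the Lmx1b library. At least 1 UMI was in 79 of 89 members, 486 of 540 endothelial and 49 of 89 macrophage barcodes, none of which reached 1600 CPM. The medians were 91.0 CPM in those members, 235 CPM in the endothelial and 25 CPM in the macrophage barcodes. Median depths were 24116, 13364 and 28551 UMIs in the same order. After the thinning described above, tdTomato was found in 30.3%, 68.5% and 15.7% of them. Whether these low counts were free transcript was not tested. At 3200 CPM 9 of the 18 Pdgfra members passed, with 6 of the 18 members within a factor of 2 of the 1600 CPM limit.

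The driver genes showed a similar order. Lmx1b transcript, which marks dorsal limb mesenchyme, was found in 1 of 89 Lmx1b-library members (1.12%, 0.0284 to 6.10) and 40 of 424 fibroblast comparison barcodes (9.43%, 6.83 to 12.6). In the Pdgfra library it was found in 2 of 18 members (11.1%, 1.38 to 34.7) and 114 of 402 (28.4%, 24.0 to 33.0). Of all other collagen barcodes, 46 of 1832 (2.51%, 1.84 to 3.34) had it in the Lmx1b library. In the Pdgfra library 160 of 1838 (8.71%, 7.46 to 10.1) had it, so the members' intervals include both shares. Endothelial barcodes had none in either library. Pdgfra transcript, encoding the platelet-derived growth factor receptor alpha of most fibroblasts, was in 76 of 89 (85.4%) and 14 of 18 (77.8%) members, against 88.4% and 80.8% of fibroblast comparison barcodes and 4.44% and 6.05% of endothelial barcodes.

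**Figure D5:**
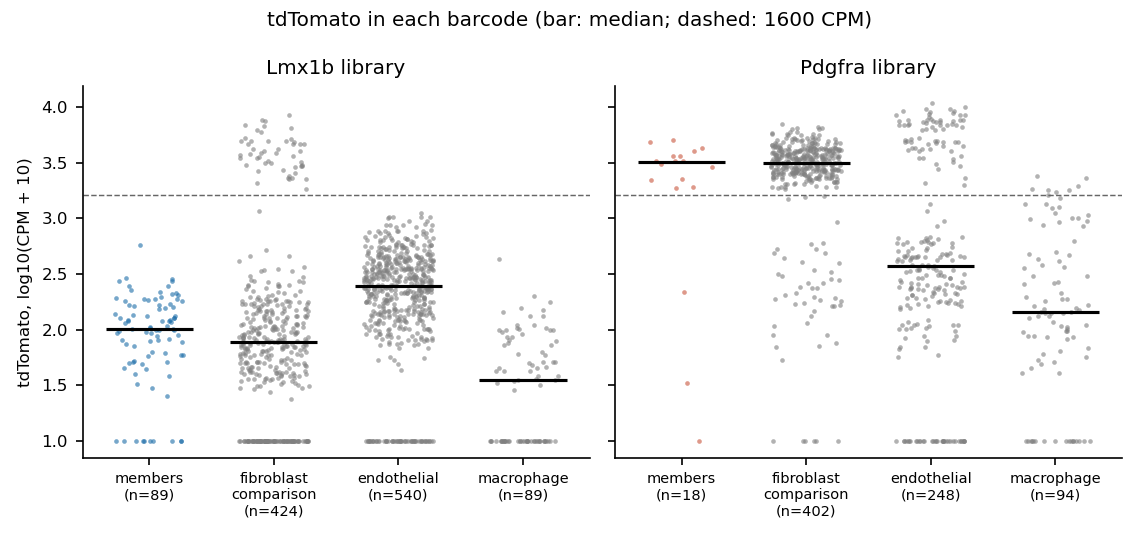
tdTomato in each barcode, as log10(CPM + 10), for members, fibroblast comparison, endothelial and macrophage barcodes of each library; bars are medians and the dashed line is 1600 CPM. All 89 Lmx1b members lie below the line, and 15 of 18 Pdgfra members lie above it.

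High Saa3 and high Mmp13 were also found outside the selection. Past the cell filter, 24 Lmx1b barcodes had Saa3 at 10 CP10k or more, and 14 of them were members. The 89 members together held 88.0% of the Saa3 UMIs of that library's barcodes past the filter. For Mmp13, 36 of 119 high barcodes were members, and the 89 members held 41.8% of the UMIs. Of the 83 other barcodes high in Mmp13, 64 had a sum of selecting genes under 5 CP10k and 36 had Bglap and Bglap2 at 30 CP10k or more. A further 38 barcodes high in Saa3 and 144 high in Mmp13 failed the cell filter. In the Pdgfra library 4 barcodes were high in Saa3 and 46 in Mmp13, of which 1 and 6 were members. Barcodes with both genes high numbered 12 in the Lmx1b library, 10 of them members.

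At the edge of the selection, 10 Lmx1b members had a sum of selecting genes of 5 to 6 CP10k and 13 barcodes that met every other limit had 4 to 5. Inside, 4 of 10 had a Saa3 UMI and 4 of 10 a Mmp13 UMI. Outside, 1 of 13 and 6 of 13 did, and median Mmp13 and Saa3 were 0 on both sides. The Pdgfra library had 5 barcodes just inside and 4 just outside, and 1 of those 9 had Mmp13.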

How the data were processed

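The authors deposited raw UMI counts per gene and barcode for 2 libraries. The file headers name Cell Ranger 4.0.0 as their source, and the labels' protocols name mm10 plus a tdTomato sequence as the alignment target. How cell-containing droplets were picked is not given in the sources used here. The libraries held 66867027 (Lmx1b) and 49084751 (Pdgfra) UMIs. Of 28001 features, 27645 matched a GENCODE vM21 gene ID.

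The members and gene lists were chosen with earlier results of these data known. UMIs were summed over barcodes of a set and scaled to 1000000 (CPM), with exact Poisson ratio intervals and exact (Clopper-Pearson) binomial intervals for shares (scipy 1.17.1, numpy 2.4.6, Python 3.11.15). Both cover counting error only. A gene was called at 2-fold or more in the same direction in both libraries. A group at 0 was set to a floor of 3 UMIs. Endothelial and macrophage barcodes had marker sums of at least 20 CP10k and collagen under 30 CP10k.

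Genes were named by rule: the markers given with the selection, the 15 measured genes with the largest and 10 with the smallest fold in the library nearer to 1, leaving out selecting, mitochondrial, Xist, tdTomato and unnamed-model genes, and up to 5 called members of each of 25 lists. Slpi, Gas6, Mfap5, Hif1a, Slc16a1, Ccl2, Cxcl1, Il6, Mki67, Jun, Mmp2, Mmp14, Mmp3 and Tnfrsf11b were added after their values were seen. Cebpd, Snorc and Trac were not analysed here, and 3 genes that the rule names are not reported here.

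The calling step was tested on simulated counts. Scrublet (scanpy 1.11.5) marked 0 barcodes by its own threshold, so the highest scores were left out as an alternative only.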

Additional observations from a re-analysis of the deposited data

Results flagged for a closer look

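For 5 gene lists, the median log2 differences between members and other collagen barcodes had opposite signs in the 2 libraries. With 1 library per line the differences were not tested, and the Pdgfra medians come from 18 members. The cell cycle median of the Lmx1b library was 0.18 and that of the Pdgfra library -1.11, and the dissociation stress median 0.75 and -0.32. For myofibroblast genes it was -0.52 and 0.12. The matrix glycoprotein and proteoglycan list gave -0.063 and 0.34, and the other collagens -0.10 and 0.19.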

How the results depend on the processing

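No paired analysis was possible because each line had 1 library, and for the same reason no replicate could be left out. The share of collagen barcodes that were members moved with its limits: in the Lmx1b and Pdgfra libraries it was 2.35% and 0.439% with a filter of 200 genes and 25% mitochondrial UMIs, 7.42% and 1.78% with 1000 genes and 5%, 3.07% and 0.269% with selecting genes at 10 CP10k, and 6.87% and 1.83% at 2.5 CP10k. Without a UMI minimum the Pdgfra share was 1.72%. The Lmx1b share stayed the higher under each of these. Of genes higher and lower in both libraries there were 731 and 467 at 1.5-fold, 95 and 118 at 3-fold, and 118 and 115 with a mean of at least 20 CPM. With no minimum except 10 UMIs 1184 were higher. The count of lower genes was 165 with selecting genes at 10 CP10k, 130 after thinning to 5000 UMIs and 165 against the fibroblast comparison barcodes, with 89, 76 and 65 of the 253 called again. The other alternatives left both counts within 1.5 times, but not the same genes: of the 257 higher genes 128 (49.8%) were called again after thinning, 139 (54.1%) at 2.5 CP10k and 150 (58.4%) with 1000 genes and 5%. The tdTomato-labelled Pdgfra share was 50% at 3200 CPM.

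Among 2137 values of 66 genes under 17 alternatives, 22 changed direction, and 106 more with 0 UMIs on one side were left out. The cause of each change was not tested. Against fibroblast comparison barcodes the osteogenic median of the Lmx1b library was 0.79, and log2 differences were 1.05 and 0.17 for Ibsp, 2.52 and 1.92 for Spp1, 2.63 and 0.91 for Phex and 0.99 and 1.49 for Dkk1 in the Lmx1b and Pdgfra libraries. There Ifitm5 of the Lmx1b library was 0.0083, and Smpd3, Adam12 and Col2a1 of the Pdgfra library were 0.49, 0.60 and 2.60. Ibsp, Ifitm5 and Col2a1 belong to the marker sums kept under 30 CP10k in that set, a limit that members did not have. The Pdgfra barcode with Xist gave 91.2% of the Col2a1 UMIs of the Pdgfra members. Lcn2 in the Lmx1b library was -0.38 with 200 genes and 25%, -3.70 at 10000 UMIs or more, -2.91 without members carrying other-class markers and -3.17 without members in which neither Wisp2 nor A2m reached 5 CP10k. Without other-class members Tnfrsf1b was -0.36 in the Pdgfra library. There, with 1000 genes and 5%, Igf1 was -1.28 on 6 members. With selecting genes at 10 CP10k, Gzme of the Lmx1b library was -0.60 and Igfbp5 of the Pdgfra library -0.50, and at 2.5 CP10k H19 was 0.16 in the Pdgfra library. Without the deepest member of each library Mmp19 was -0.016 in the Pdgfra library.

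The 18 Pdgfra members and the 5000 UMI minimum limit what low genes can show. The comparison with the fibroblast set, and the settings that leave out single members, members with Xist, members without Wisp2 and A2m or, among Hp and Wisp2 members, those with other-class markers, were chosen after seeing the data.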
